A study of Homo sapiens with 3 samples.

Results

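SCD1-KO HCT-116 cells were compared with SCD1-WT HCT-116 cells (a cancer line of the human colon) by the log2 ratio of their gene expression signals, 1 array a side. SCD1 (gene SCD) is stearoyl-CoA desaturase, the enzyme of the endoplasmic reticulum that puts the first double bond into saturated fatty acyl-CoAs and so makes the monounsaturated fatty acids used for membranes and storage lipids. Tumor cells that divide quickly need these fatty acids, and cells without the enzyme must take them up or use related desaturases. When cells run short of sterols or unsaturated fatty acids, SREBP transcription factors are processed and the genes of lipid synthesis, SCD among them, are transcribed.

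The series held 3 arrays, of SCD1-WT cells treated with DMSO for 24 h, SCD1-WT cells treated for 24 h with the SCD1 inhibitor T-3764518, and SCD1-KO cells, whose label gives no vehicle or time; the methods give DMSO for the same time. SCD1-KO cells were derived from HCT-116 by transfection of Cas9, guide and puromycin resistance plasmids, selection in puromycin and limiting dilution. Whether the SCD1-WT cells had been through any of these steps is not stated. Differences that come with the knockout, with the selection and with the clone cannot be told apart, and the sources used here do not say which clone was hybridised. No p-value was computed, as 1 array a side leaves no replicate check.

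The Human Genome U133 Plus 2.0 Array reads a gene by 1 or more probe sets, and each probe set has a MAS5 signal, a linear brightness scaled to the same trimmed mean on every array. Of 54675 probe sets, 23192 were kept, those of exactly 1 gene whose mean log2 signal over the 3 arrays reached the array's median, a signal of 56.6. They read 12321 genes. Each gene was given the median of the log2 ratios of its probe sets, SCD1-KO over SCD1-WT with DMSO. Genes at least 2-fold apart are called higher or lower. The ratio varied between probe sets of 1 gene with an SD of 0.56 (log2) in the lowest quintile of signal and 0.24 in the highest, which does not cover differences between cultures. Where a signal was under 56.6 it was raised to that level and the fold is given as "at least". Signals are geometric means over a gene's kept probe sets, so for genes with several the printed ratio need not equal that of the signals.

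The SCD1-KO array was much like the SCD1-WT array for most genes. Of 12321 genes, 385 were higher (3.12%), 484 were lower (3.93%) and 869 were called in all (7.05%), around a median log2 ratio of -0.011. When the arrays were scaled to the same median signal instead, the median ratio moved to 0.13 and the split was 571 higher and 365 lower, so that 61% of called genes were higher in place of 44.3%. The called genes include 53 that were at least 4-fold higher and 69 at least 4-fold lower, or 42 and 42 once low signals were raised. T-3764518 gave 269 genes higher (2.18%) and 407 lower (3.30%), against the same DMSO array. Among 13 tested housekeeping genes none was called, with log2 ratios from -0.81 to 0.43. The 3′ to 5′ signal ratio of ACTB, a measure of RNA integrity, was 1.30 for SCD1-WT with DMSO and 1.54 for SCD1-KO, that of GAPDH was 0.97 and 1.07, and the transcripts added at labelling stood at a median log2 ratio of -0.26 on the SCD1-KO array and 0.00039 on the T-3764518 array. The part of these differences in the results was not tested. Of 10 colorectal epithelial marker genes on the array, 8 were at or above 56.6 in SCD1-WT cells and 7 in SCD1-KO cells, with a summed signal of 83115 and 78384. Fibroblast markers were at or above that level for 2 and 3 of 8 genes, leukocyte markers for 2 and 2 of 6 and endothelial markers for 3 and 1 of 6.

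**Figure D1:**
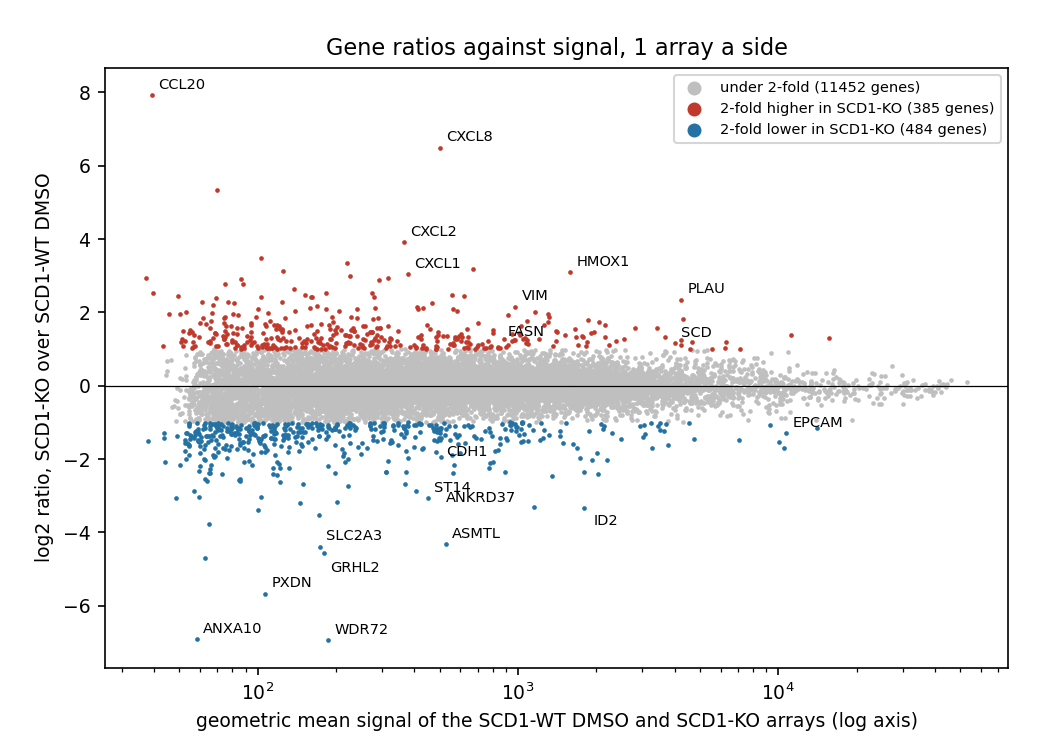
Log2 ratio of SCD1-KO over SCD1-WT with DMSO (vertical axis) against the geometric mean signal of both arrays (horizontal axis, log scale), 1 point for each of 12321 genes. The 385 higher genes are red and the 484 lower genes blue, and both lie mostly among dim genes, with CCL20, CXCL8, WDR72, ANXA10 and PXDN farthest from 0.

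SCD mRNA was present in SCD1-KO cells, and its signal was above that of SCD1-WT cells. SCD has 4 probe sets, each given here in the order SCD1-WT with DMSO, SCD1-WT with T-3764518 and SCD1-KO, the order used for all signals that follow. The first read 3654, 21595 and 7692, 2.11-fold higher in SCD1-KO than with DMSO. Another 2 read 834, 6908 and 1965 (2.36-fold) and 984, 8438 and 2521 (2.56-fold). The brightest probe set read 23841, 39350 and 24119, so SCD1-KO and SCD1-WT cells were alike on it. The gene value was 1.16 on the log2 scale for SCD1-KO and 2.81 for T-3764518. Where the probe sets lie in relation to the edited bases is not known here, and a transcript can persist when its protein is lost, so these values do not check the knockout. The neighbors of SCD in gene order were near the level of SCD1-WT cells for most, with log2 ratios of -0.31 for ERLIN1, 0.08 for CHUK, -0.32 for CWF19L1 and 0.20 for BLOC1S2 on one side. On the other side OLMALINC stood at -0.20, SEC31B at -0.98, NDUFB8 at -0.41 and HIF1AN at 0.04. At the ends of this run, CPN1 was lower at -1.08 and PAX2 stood at 0.53.

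Several of the most reduced genes were bright in SCD1-WT cells and under 56.6 in SCD1-KO cells, while others stayed above that level. WDR72, a WD repeat protein, read 2070, 1746 and 16.8, at least 36.6-fold lower. PXDN, a peroxidase that cross-links collagen IV in basement membranes, read 762, 521 and 14.9, at least 13.5-fold lower, and its probe sets stood at -6.51 and -4.84. In each of these genes both SCD1-WT arrays were bright and the SCD1-KO signal lay under 56.6. SLC2A3, the high-affinity glucose transporter GLUT3, read 826, 780 and 36.6, at least 13.6-fold lower. ANXA10, an annexin of gastric epithelium, read 641, 720 and 5.32, at least 11.3-fold lower. ASMTL, an acetylserotonin O-methyltransferase-like gene, read 2292, 1893 and 122, and its 3 probe sets lay between -4.67 and -3.70. ID2, an inhibitor of basic helix-loop-helix transcription factors, read 5698, 3886 and 560, 10.2-fold lower. MAML3, a coactivator of Notch, was at least 10.3-fold lower, ZBED2 at least 7.79-fold, CEMIP, a hyaluronan-degrading protein, 6.65-fold, and KSR2, a scaffold of the ERK cascade, 6.41-fold lower. T-3764518 left all of them within 2-fold of DMSO except CEMIP, which was 2.50-fold lower.

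Some genes went the other way, from a dim signal in SCD1-WT cells to a brighter one in SCD1-KO cells. LYZ, lysozyme, read 11, 45.1 and 446, at least 7.89-fold higher. RGS5, a regulator of G protein signaling, read 80.3, 75.1 and 609 over 5 probe sets, whose log2 ratios ran from 0.46 to 3.78. DCLK1, a kinase known as a tuft cell marker of the gut, read 80.3, 138 and 636, at least 5.85-fold higher. All 3 read 138 or less on the SCD1-WT arrays. PRSS33, a serine protease, was 7.40-fold higher, NANOS1, an RNA-binding repressor of translation, at least 6.55-fold, and TNFRSF19, a receptor of the TNF family and a Wnt target, at least 6.06-fold higher. LYZ and TNFRSF19 were under 56.6 on both SCD1-WT arrays and passed the filter through SCD1-KO. For them the pattern is in part set by the filter. FGFBP1, which releases fibroblast growth factors from the matrix, read 222, 614 and 2018, 9.09-fold higher. Among bright genes, PLAU, the urokinase plasminogen activator, read 1870, 3960 and 9536, 5.10-fold higher, and ANXA3, an annexin, read 6877, 12030 and 18080, 2.63-fold higher. TNFRSF12A, the receptor of TWEAK, was 2.0-fold higher, and EPHA2, an ephrin receptor, 2.49-fold higher. CPOX, an enzyme of heme synthesis, was the brightest lower gene, with 21057, 13148 and 9436, 2.23-fold lower.

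Some of the genes lower in SCD1-KO cells were neighbors, in long stretches near the ends of chromosomes 4 and 11. Genes were set in chromosome order, and the median log2 ratio was taken in windows of 25 neighboring tested genes. Over 11749 windows the median ran from -0.98 to 0.77 in SCD1-KO cells and from -0.52 to 0.30 with T-3764518, and 192 windows were at or beyond 0.5 from 0 in SCD1-KO cells against 3 with T-3764518. The medians of whole chromosomes lay between -0.078 and 0.070 in SCD1-KO cells. Both the 0.5 limit and this reading were chosen after the values were seen, and they are a description with no test.

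On chromosome 11, the last 119 tested genes, from ARHGAP20 to B3GAT1-DT, had a median log2 ratio of -0.80, with the middle 50% of genes between -1.09 and -0.34. Of these 119 genes 108 were below 0 and 40 were called lower, 33.6% against 3.93% of all genes, and none was higher. The 58 genes just before them, from TMEM135 to FDX1, had a median of 0.56, 52 were above 0 and 6 were called higher. The sign turned between FDX1 at 0.70 and ARHGAP20 at -0.63. The same genes had medians of -0.074 and -0.022 with T-3764518. Bright members of the lower stretch were UBE4A, a ubiquitin chain assembly factor, with 6463, 6725 and 3164, and STT3A, a subunit of oligosaccharyltransferase, with 4614, 5665 and 2294. CHEK1, the checkpoint kinase, read 896, 615 and 332, and H2AX, the histone variant marked at DNA breaks, read 747, 555 and 341. ST14, matriptase of epithelial surfaces, went well past its neighbors, with 1297, 1006 and 156, 8.32-fold lower. IL18, an epithelial cytokine, read 3613, 4292 and 1464. In the higher stretch CASP4, an inflammatory caspase, read 225, 201 and 523, and MAML2, a coactivator of Notch, read 486, 362 and 1315.

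On chromosome 4, 65 genes near the end, from FHDC1 to FAT1, had a median log2 ratio of -0.74, and 18 were called lower and 1 higher. This stretch was not even. Most genes from TMEM144 at -1.62 to DCTD at -0.76 had ratios below 0, those from RWDD4 at 0.26 to PRIMPOL at 0.41 lay above 0, and ACSL1 stood at 1.02, followed by SLC25A4 at -1.34. FAT1, an atypical cadherin, was a bright gene in SCD1-WT cells and read 18843, 17060 and 5852. CPE, carboxypeptidase E, read 3813, 2898 and 1065. ANXA10 and ANKRD37 also lie in this stretch. At the start of the same chromosome, 34 genes from PIGG to SLC75A1 had a median of 0.50 and 41 genes from MRFAP1L1 to SEPSECS one of 0.46, with 5 called higher in each and 1 lower in the second. FGFBP1 lies in the second of these. The 25 genes after SLC75A1 had a median of 0.41 and the 25 before MRFAP1L1 one of 0.39, so most genes in the gap were also above 0. Genes in that gap count as outside the stretches. The medians of these 3 stretches with T-3764518 were -0.12, -0.12 and -0.046. In all, 58 of the 484 lower genes and 16 of the 385 higher genes lay in stretches of their own sign, and 425 lower and 368 higher genes lay outside all 5 stretches. The arrays measured mRNA, and whether the copy number of these genes differed between the cells was not tested.

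**Figure D2:**
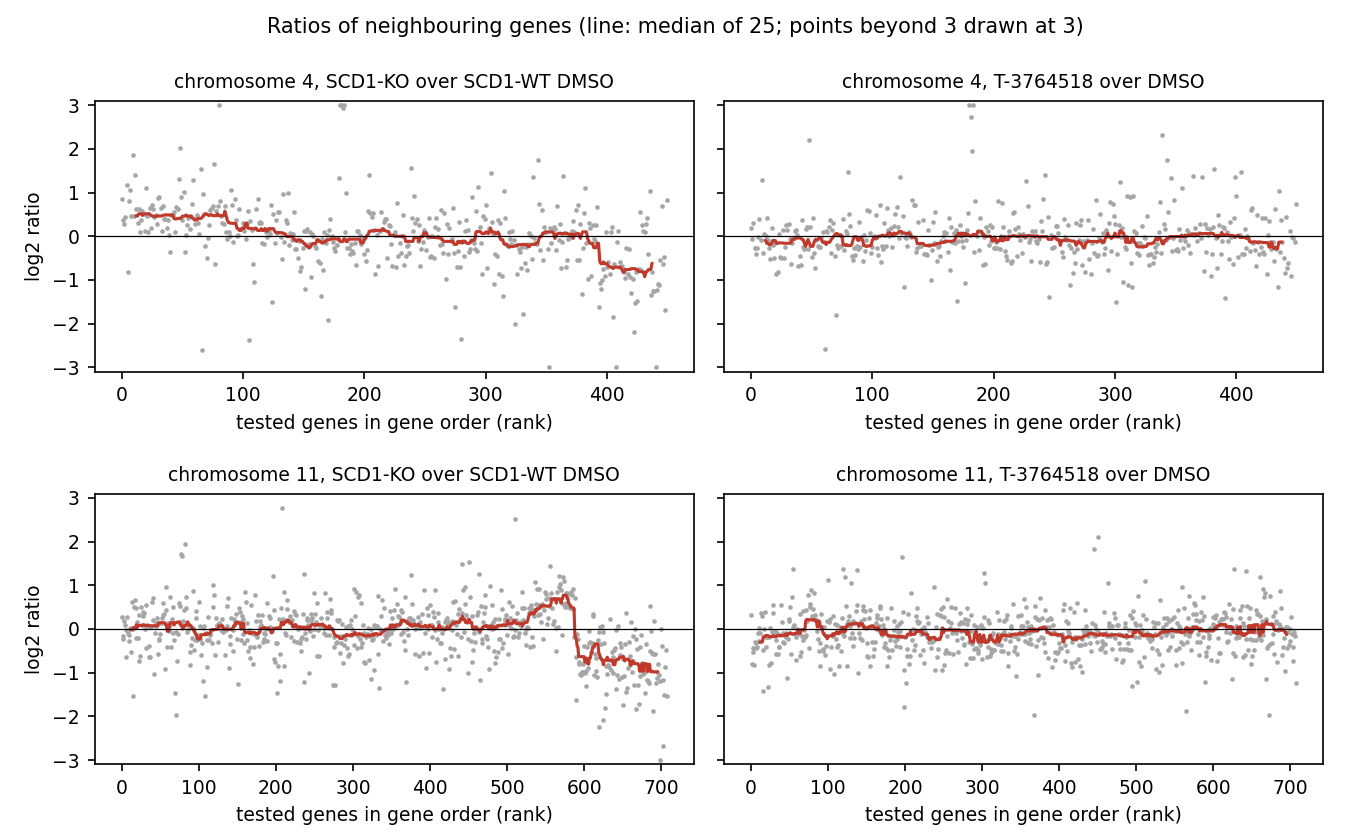
Log2 ratio of each tested gene (gray points) in gene order along chromosomes 4 and 11, with the running median of 25 genes (red line), for SCD1-KO over SCD1-WT with DMSO (left) and T-3764518 over DMSO (right). In SCD1-KO cells the line lies near 0.5 at the start of chromosome 4 and below -0.5 near its end, and on chromosome 11 it turns from above 0.5 to about -0.8 at ARHGAP20, while it stays near 0 with T-3764518.

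Target genes of the hypoxia-inducible factors were lower in SCD1-KO cells. HIF is a transcription factor that is hydroxylated and degraded while oxygen is plentiful, and its targets serve glucose uptake, glycolysis, mitophagy and collagen hydroxylation. Of 39 tested targets 17 were lower, 43.6% against 3.93% of all genes, and none was higher, with a median log2 ratio of -0.92 against -0.011 over all genes. With T-3764518 the median of the same genes was -0.26. ANKRD37, an ankyrin repeat protein, read 3595, 2018 and 366, 9.82-fold lower. Without the chromosome stretches, which hold ANKRD37, 16 of 38 were lower. ANGPTL4, an inhibitor of lipoprotein lipase, read 1102, 678 and 150, and its probe sets stood at -2.90 and -2.85. ADM, adrenomedullin, was the brightest with 17152, 8391 and 5942. For each of these genes SCD1-KO was the lowest array and T-3764518 lay between.

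The mitophagy receptors BNIP3 and BNIP3L read 5903, 4338 and 1827 and 5031, 3878 and 2467, 3.23-fold and 2.04-fold lower. Of the collagen prolyl hydroxylase subunits, P4HA1 read 7895, 7458 and 2869, and P4HA2 read 1544, 1205 and 458. EGLN3 and EGLN1, the oxygen sensors that mark HIF for degradation and are its targets too, had log2 ratios of -1.44 and -1.02. PDK1, a kinase that inhibits pyruvate dehydrogenase, stood at -1.18, PFKFB4, which sets the level of fructose 2,6-bisphosphate, at -1.43, and KDM3A, a histone demethylase, at -1.32. Unlike EGLN3 and EGLN1, the HIF system genes HIF1A, EPAS1 and VHL were near the level of SCD1-WT cells, at 0.36, -0.28 and 0.09. VEGFA, the angiogenic growth factor, stood at 0.13, and DDIT4, an inhibitor of mTORC1, at -0.32. Hence not every known target was lower. Of 21 genes of glucose transport and glycolysis 3 were lower and none higher, 14.3% against 3.93% of all genes, with a median of -0.50. Beside SLC2A3, they were GPI, which read 13404, 9201 and 6413, and the neuronal enolase ENO2, which read 3138, 1541 and 1468.

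**Figure D3:**
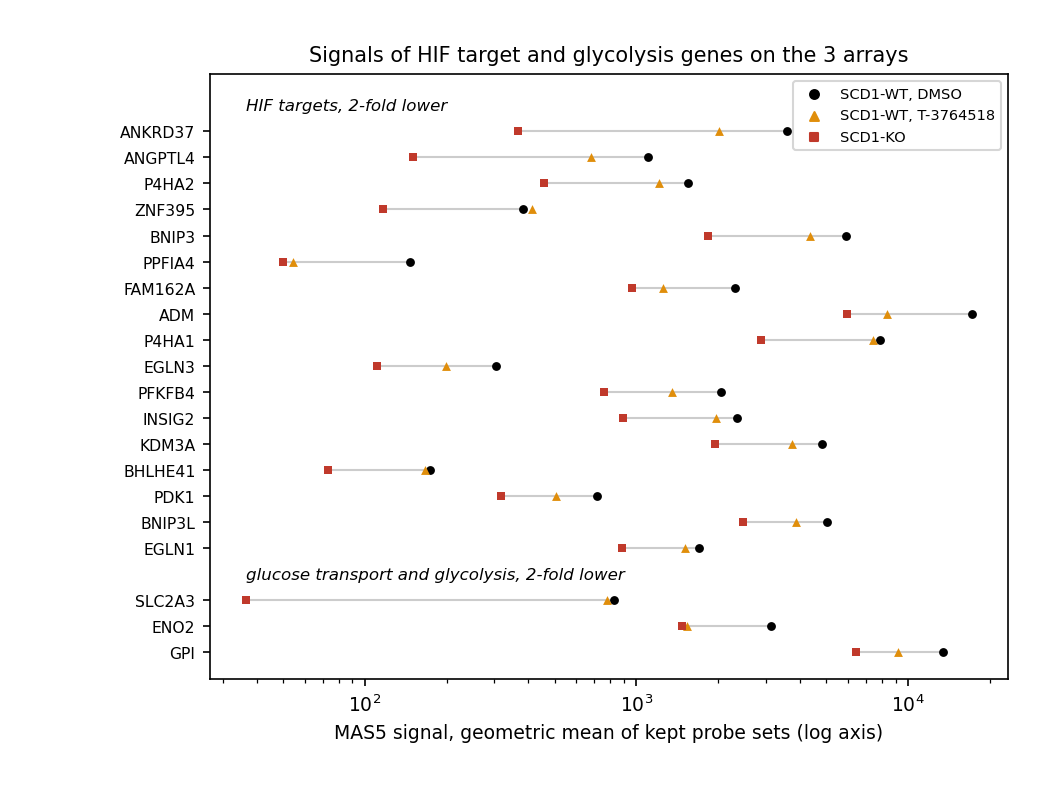
MAS5 signal (log axis) of the 17 HIF target genes and the 3 glucose transport and glycolysis genes called lower, on the 3 arrays (black circles SCD1-WT with DMSO, orange triangles SCD1-WT with T-3764518, red squares SCD1-KO). SCD1-KO is the lowest array for each gene, and SLC2A3 shows the widest gap.

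The hypoxia response element was searched as TACGTG on either strand in RefSeq promoters of GRCh38.p14, 250 bases before to 50 after a start. Other forms of the element were not searched, so the counts are of this exact string and do not show which promoters lack the element. The string was found in 1139 of 35116 promoters (3.24%), and in at least 1 promoter of 3.98% of genes. Of the lower HIF targets that have a promoter in the table, 4 of 15 held it, and of the tested targets not called, 6 of 18. ANKRD37, the most reduced of them, holds 1 match that begins 144 bases before its start, at chr4:185396591-185396890 on the plus strand. It is shown as the promoter of the HIF target with the widest difference, with the match in capitals.
ANKRD37: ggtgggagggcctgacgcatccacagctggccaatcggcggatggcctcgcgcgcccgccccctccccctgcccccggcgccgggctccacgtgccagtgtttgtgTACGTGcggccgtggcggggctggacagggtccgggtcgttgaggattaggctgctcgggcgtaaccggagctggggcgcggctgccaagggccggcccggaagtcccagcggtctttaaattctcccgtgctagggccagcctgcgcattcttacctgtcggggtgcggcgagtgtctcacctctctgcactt

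SCD1-KO cells had less mRNA of epithelial junction proteins and of factors that keep cells epithelial. Cells of an epithelium are held by adherens junctions, tight junctions and desmosomes, and GRHL2, OVOL1 and ESRP1 maintain that state while ZEB1 represses it. Of 36 tested genes of junctions and polarity 6 were lower, 16.7% against 3.93% of all genes, and 1 was higher, with a median log2 ratio of -0.44 and 5 genes above 0. With T-3764518 the median was -0.035. CDH1, E-cadherin of the adherens junction, read 835, 1197 and 300.1, 2.78-fold lower. EPCAM, the epithelial cell adhesion molecule, read 16859, 17224 and 6840, and CLDN7, a claudin of the tight junction, read 5580, 9013 and 2360. For these 3 genes SCD1-KO was below both SCD1-WT arrays, and T-3764518 was at or above DMSO. LIN7A, a polarity scaffold, read 606, 166 and 67.5, 8.98-fold lower. CGN, cingulin of the tight junction, had a log2 ratio of -1.35 (-0.76, under 2-fold, with low signals raised) and MARVELD3, a tight junction membrane protein, one of -1.18. The higher gene was CEACAM1, a carcinoembryonic antigen adhesion molecule, at 1.32. Desmosomal genes were not called, with -0.80 for DSC2, -0.56 for DSG2 and -0.02 for DSP, nor was CTNNB1, beta-catenin, at 0.54.

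Among 17 tested epithelial and mesenchymal regulators 4 were lower (23.5% against 3.93% of all genes) and 3 higher (17.6% against 3.12%), with a median of 0.39. GRHL2, the grainyhead factor of epithelial genes, read 873, 782 and 36.7, at least 15.4-fold lower. ESRP1, a splicing factor of epithelial isoforms, read 4119, 6442 and 1510, and ELF3, an ETS factor of epithelia, read 1196, 809 and 512. OVOL1, a zinc finger repressor of mesenchymal genes, had a log2 ratio of -1.22. VIM, vimentin, the intermediate filament of mesenchymal cells, read 463, 314 and 2061, 4.45-fold higher. ZEB1, the repressor of CDH1, read 143, 149 and 381, 2.79-fold higher over 3 probe sets, and SPARC, a matrix protein, read 97.3, 71.8 and 315. For these 3 genes the SCD1-WT arrays were within 2-fold of each other and SCD1-KO was the highest. The keratins, filaments of epithelial cells, were not lower. Of 8 tested, 3 were higher (37.5%) and none lower, and KRT20, of colonic epithelium, read 99.9, 113 and 370, while KRT8 and KRT18 stood at 0.36 and 0.26. MAL2, a protein of apical transport, read 6596, 6791 and 2134, 3.09-fold lower. Among 24 integrin and matrix genes 3 were higher (12.5%), namely THBS1, thrombospondin, at 1.49, ITGB8 at 1.23 and ITGB4 at 1.05, and PXDN was the 1 that was lower.

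Chemokines that draw neutrophils and lymphocytes had the highest median of all lists, and genes of NF-kB, the factor that inflammatory signals release from its inhibitors, were higher with them. Of 20 listed chemokines 7 were tested, and 5 of these were higher (3.12% of all genes were), with a median log2 ratio of 3.03. CCL20 and CXCL8 were under 56.6 with DMSO and passed the filter on the mean signal through the arrays where they were high, so this count is in part set by the filter. CXCL8, interleukin 8, read 52.6, 2670 and 4744, at least 61.1-fold higher. CXCL2 read 93.6, 816 and 1413, CXCL1 read 132, 874 and 1078 and CXCL3 read 114, 444 and 874, 15.1-fold, 8.19-fold and 7.65-fold apart between SCD1-KO and DMSO. CCL20, the ligand of CCR6, read 2.50, 130 and 612, at least 10.8-fold higher. All 5 were lowest with DMSO and highest in SCD1-KO cells. CXCL1, CXCL2 and CXCL3 are close paralogs, and whether their probe sets read each other's transcripts was not tested. CX3CL1 and CXCL16 stood at 0.28 and -0.59.

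Of 22 tested NF-kB subunits and targets 8 were higher and none lower, 36.4% against 3.12% of all genes, with a median of 0.66 and 20 genes above 0. NFKBIA, the inhibitor I kappa B alpha, which NF-kB itself induces, read 1635, 2667 and 4829, 2.95-fold higher. RELB, a subunit of the non-canonical pathway, read 171, 502 and 508, and NFKB2, its partner, had a log2 ratio of 1.17. TNFAIP3, the deubiquitinase A20 that ends the signal, read 139, 243 and 395, 2.84-fold higher. NFKBIZ, NFKBIE and NFKBIB, further inhibitors, stood at 1.26, 1.12 and 1.03, and TNFAIP2 at 1.28. The subunits of the canonical pathway were near SCD1-WT level, with -0.08 for RELA and 0.27 for NFKB1. Of 23 cytokines and receptors 1 was higher (4.35%) and 3 lower (13% against 3.93% of all genes). CSF1, macrophage colony-stimulating factor, stood at 1.51, IL1RAP, a subunit of the interleukin 1 receptor, at -1.66, IL11 at -1.58 and IL18 at -1.30. Once low signals were raised IL11 stood at -1.10. With no signal filter the ratios of CSF1 and IL11 changed sign.

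The promoters of these genes are shown because the members were higher together and share a motif. The NF-kB motif was searched as GGNNTTTCC on either strand. It was found in 2198 of 35116 promoters (6.26%), and in at least 1 promoter of 7.61% of genes. It was in the promoters of 5 of 5 higher chemokines and of 6 of 6 higher NF-kB genes that have a promoter in the table, and of 6 of 14 tested NF-kB genes that were not called. That list was drawn up as NF-kB subunits and targets, so its genes and the motif were not chosen apart. Every tested chemokine with a promoter in the table was higher, so the chemokine list holds no uncalled gene to compare. Among these chemokines CXCL1, CXCL2 and CXCL3 are close paralogs. In CXCL8 (chr4:73740319-73740618, plus strand) the match begins 91 bases before the start, and in CCL20 (chr2:227813592-227813891, plus strand) 79 bases before it. CXCL2 (chr4:74099146-74099445, minus strand) holds matches 77 and 53 bases before the start and CXCL1 (chr4:73869143-73869442, plus strand) 78 and 53 bases before it. In NFKBIA (chr14:35404700-35404999, minus strand) they lie 242 and 81 bases before it. Capitals mark the matches, written as they stand on the strand of the gene.
CXCL8: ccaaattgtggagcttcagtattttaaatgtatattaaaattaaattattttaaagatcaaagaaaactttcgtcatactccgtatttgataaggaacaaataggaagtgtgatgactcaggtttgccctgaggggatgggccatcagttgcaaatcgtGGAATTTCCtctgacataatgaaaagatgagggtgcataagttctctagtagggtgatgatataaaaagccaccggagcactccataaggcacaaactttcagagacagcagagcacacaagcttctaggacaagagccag
CCL20: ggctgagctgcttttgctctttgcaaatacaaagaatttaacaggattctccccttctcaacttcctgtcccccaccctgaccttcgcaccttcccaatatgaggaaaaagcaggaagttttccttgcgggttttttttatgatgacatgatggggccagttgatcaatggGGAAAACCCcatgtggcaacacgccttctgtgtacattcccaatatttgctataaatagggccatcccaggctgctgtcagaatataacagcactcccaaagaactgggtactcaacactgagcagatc
CXCL2: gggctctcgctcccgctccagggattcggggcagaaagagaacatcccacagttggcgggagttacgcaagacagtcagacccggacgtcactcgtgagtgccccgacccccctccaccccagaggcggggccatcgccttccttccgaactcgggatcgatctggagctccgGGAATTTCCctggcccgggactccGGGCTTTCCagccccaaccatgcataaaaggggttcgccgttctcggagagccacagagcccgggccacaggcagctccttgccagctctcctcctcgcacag
CXCL1: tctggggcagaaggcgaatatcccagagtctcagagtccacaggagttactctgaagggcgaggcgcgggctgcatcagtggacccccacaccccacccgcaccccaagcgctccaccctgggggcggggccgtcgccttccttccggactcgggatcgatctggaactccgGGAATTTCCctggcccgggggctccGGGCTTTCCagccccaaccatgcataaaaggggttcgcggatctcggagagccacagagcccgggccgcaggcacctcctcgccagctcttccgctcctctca
NFKBIA: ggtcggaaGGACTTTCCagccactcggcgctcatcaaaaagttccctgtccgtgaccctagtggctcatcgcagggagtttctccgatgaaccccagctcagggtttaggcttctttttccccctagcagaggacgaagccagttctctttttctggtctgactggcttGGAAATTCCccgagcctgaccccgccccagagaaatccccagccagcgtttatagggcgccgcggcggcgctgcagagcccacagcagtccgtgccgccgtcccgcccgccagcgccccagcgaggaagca

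The sequences of CXCL2 and CXCL1 hold the same pair of matches at almost the same distance from the start. Both genes read low with DMSO and 8-fold or more higher in SCD1-KO cells. A match in these letters is a description of the sequence, and binding was not measured. A further 3 motifs were searched in the same way. The sterol element TCACNCCAC, in 1.39% of genes, was in 0 of 5 higher and 0 of 10 other tested cholesterol synthesis genes. The antioxidant element TGACNNNGC, in 16.1% of genes, was in 2 of 6 higher and 4 of 15 other NRF2 targets. The E-box CACCTG, added after values were seen and in 24.1% of genes, was in 1 of 3 lower and 10 of 23 other junction and polarity genes.

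Interferon-stimulated genes, which carry the antiviral response, were in part higher in SCD1-KO cells. Of 41 listed genes 31 were tested, of which 8 were higher and none lower (3.12% of all genes were higher), and 1 was higher with T-3764518, with a median log2 ratio of 0.51 in SCD1-KO cells and -0.31 with T-3764518. BST2, tetherin, which holds budding virus at the membrane, read 117, 79.5 and 494, 4.23-fold higher. IFI27 read 69.2, 52.0 and 370 and IFI44 read 44.4, 48.2 and 240, at least 4.24-fold higher. IFI44 was under 56.6 on both SCD1-WT arrays and passed the filter through SCD1-KO, and the count of higher genes was 2 with a stricter filter and 13 with none. IFI35 read 371, 311 and 1092, PARP14 read 188, 221 and 470 and IFIT3 read 180, 204 and 412. ISG20, an exonuclease, was the exception that was also higher with T-3764518, with 296, 1106 and 819. Other well known members were not called, with log2 ratios of 0.32 for ISG15, 0.82 for IFIT1 and -0.02 for IFITM3. The factors IRF1, IRF7 and IRF9 stood at 0.58, 0.65 and 0.74. Of 18 genes of antigen presentation none was higher and 1, HLA-DRA, was lower (5.56% against 3.93% of all genes). HLA-DRA read 200, 176 and 57.0, with a log2 ratio of -1.81, while HLA-B and B2M stood at 0.36 and 0.06.

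**Figure D4:**
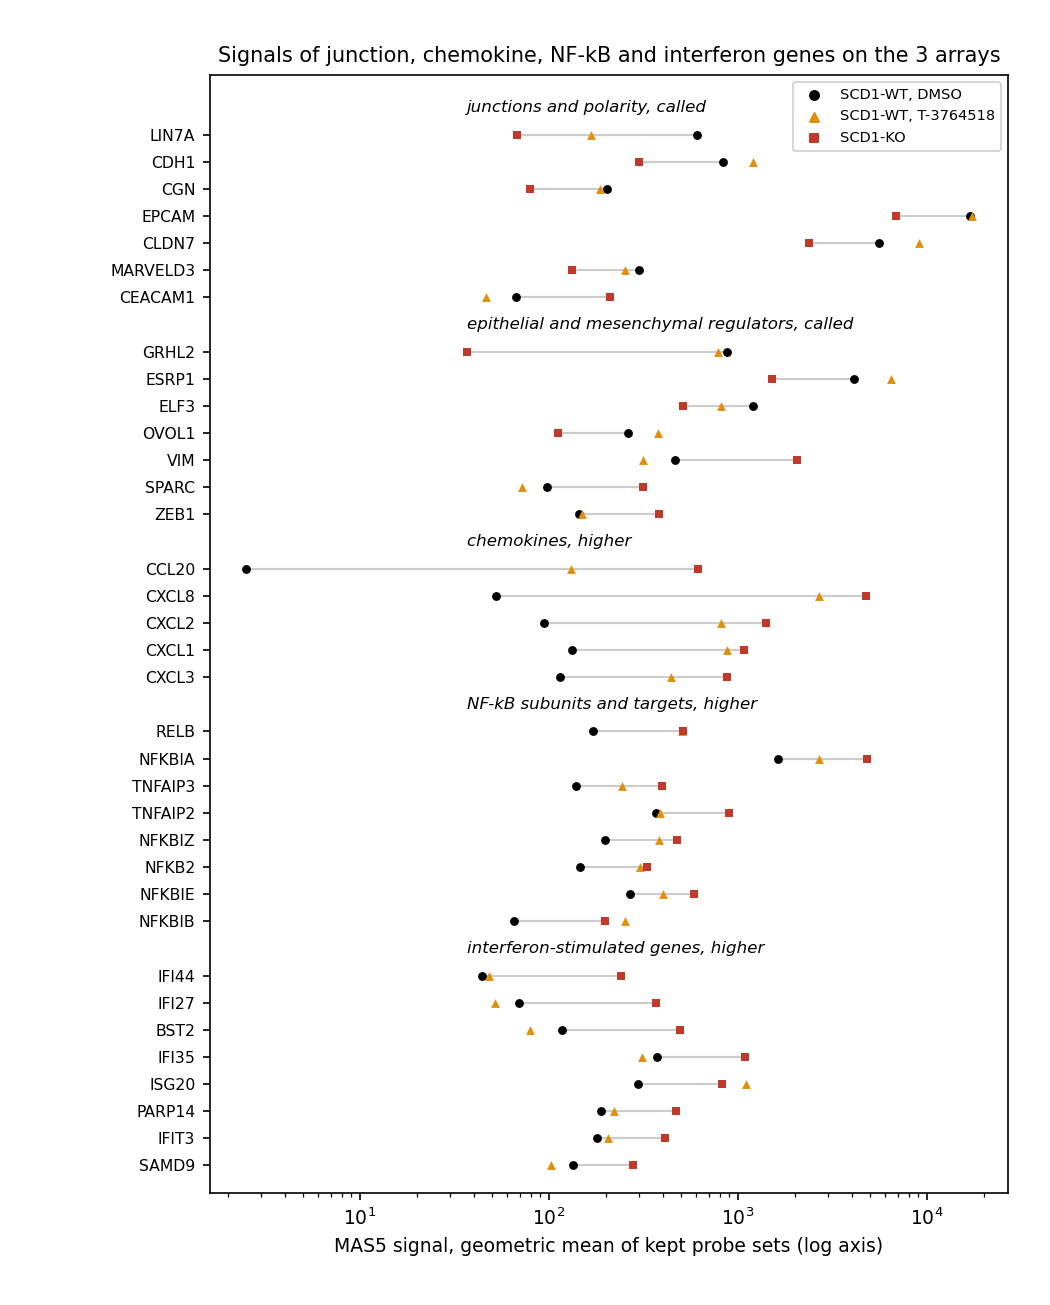
MAS5 signal (log axis) on the 3 arrays of the called genes of 5 lists (black circles SCD1-WT with DMSO, orange triangles SCD1-WT with T-3764518, red squares SCD1-KO). For the chemokines T-3764518 lies between DMSO and SCD1-KO, while for GRHL2, VIM, ZEB1, BST2 and IFI27 it lies near DMSO.

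Of 17 genes of cholesterol synthesis 6 were higher and none lower, 35.3% against 3.12% of all genes, with a median log2 ratio of 0.78 in SCD1-KO cells and 1.19 with T-3764518. HMGCS1, which makes HMG-CoA, stood at 1.94 and DHCR7, the last enzyme of the pathway, at 1.53, and FDPS, LSS, IDI1 and ACAT2 were also higher. The 3 probe sets of IDI1 ran from -1.0 to 1.45, and with the mean of probe sets 5 genes of the list were higher. Of 9 genes of fatty acid synthesis 2 were higher (22.2%), namely FASN, fatty acid synthase, with 941, 2056 and 1982, and ACSS2, an acetyl-CoA synthetase, with 691, 2732 and 2515. For both genes SCD1-KO and T-3764518 were at a like level. Of 12 desaturases and elongation genes 2 were higher (16.7%) with a median of 0.11, SCD and HSD17B12, a reductase of fatty acid elongation, at 1.21. HSD17B12 stood at 0.61, under 2-fold, once low signals were raised. Of 20 triglyceride and lipid droplet genes 1 was higher (5% against 3.12% of all genes) and 1 lower (5% against 3.93%). The median of this list was -0.018. Among 12 acyl-CoA synthetases and fatty acid binding genes 2 were higher (16.7% against 3.12% of all genes) and 1 lower (8.33% against 3.93%). The median of this list was -0.27, with 5 genes above 0. The higher genes ACSL1 and SLC27A4, which activate long-chain fatty acids, stood at 1.02 and 1.13. ACSL5, an intestinal synthetase, read 4939, 3531 and 1858, 2.66-fold lower. Among 21 fatty acid oxidation and PPAR genes 3 were lower (14.3% against 3.93% of all genes), ANGPTL4, ETFDH and CPT1C, with a median of -0.30. ANGPTL4 is also counted among the HIF targets. ETFDH lies in the lower stretch of chromosome 4, and outside the stretches 2 of 20 genes of the list were lower. ARRDC4, a target of the glucose sensor MondoA, was higher with a log2 ratio of 2.26, the 1 called gene of 9.

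Of 28 targets of NRF2, the factor of the oxidant response, 8 were higher and none lower, 28.6% against 3.12% of all genes, with a median of 0.46. HMOX1, heme oxygenase, read 543, 4183 and 4636, 8.54-fold higher. TXNRD1, thioredoxin reductase, was the brightest higher gene with 10006, 26934 and 24566, and SLC7A11, the cystine transporter, had a log2 ratio of 1.74. Of 33 targets of ATF4, the factor of amino acid and ER stress, 7 were higher (21.2%) with a median of 0.36, which was 0.79 with T-3764518. NUPR1, a stress-induced nuclear protein, stood at 2.05 and CHAC1, a glutathione-degrading enzyme, at 1.28. Of 27 ER chaperones and sensors 2 were higher (7.41%), and of 16 heat shock proteins none was called.

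Targets of p53, the tumor suppressor that is wild type in HCT-116, were higher in SCD1-KO cells. Of 26 tested 5 were higher and none lower, 19.2% against 3.12% of all genes, and 23 lay above 0, with a median of 0.57 against 0.016 with T-3764518. PLK2, a polo-like kinase, read 2299, 2386 and 8055, 3.50-fold higher, and CDKN1A, the cell cycle inhibitor p21, read 4163, 7660 and 9532. MDM2, the ligase that degrades p53, had a log2 ratio of 1.04 over 7 probe sets, TIGAR one of 1.11 and SESN2 one of 1.2. SESN2 is also a target of NRF2 and ATF4 and stands in those lists. Of 15 BCL2 family genes the death promoters BIK and PMAIP1 were higher (13.3%), at 1.25 and 1.01. Among 25 AP-1 and immediate early genes 7 were higher (28.0%) and 1 lower (4.0%). CCN2 and CCN1, matrix proteins induced by YAP and serum, stood at 2.41 and 1.65, and FOS, which read 2025, 1838 and 728, was the lower gene. Of 22 genes of ERK feedback 3 were higher (13.6%) and 1 lower (4.55%).

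Of 49 genes of DNA replication and S phase 2 were lower, ORC1 and PRIM1, with log2 ratios of -1.02 and -1.01. That is 4.08%, near the 3.93% of all genes, and the median was -0.33 in SCD1-KO cells and -0.80 with T-3764518. None of 42 genes of G2 and mitosis was called, with a median of -0.22. None of 37 cytosolic ribosomal protein genes, 42 oxidative phosphorylation genes, 31 proteasome genes or 32 lysosome genes was called. Small shifts were seen below that limit. The oxidative phosphorylation median was -0.25 in SCD1-KO cells, with 2 of 42 genes above 0, and -0.25 with T-3764518. For ribosomal proteins it was -0.13, with 6 of 37 above 0, and 0.019 with T-3764518. Proteasome and lysosome genes had SCD1-KO medians of 0.088 and 0.11, with 22 of 31 and 17 of 32 above 0. Among 16 genes of BMP signaling and the ID family ID2 and ID4 were lower (12.5% against 3.93% of all genes), and ID4 stood at -0.82 with low signals raised. HAS2, hyaluronan synthase, was higher (6.25% against 3.12%) with a log2 ratio of 1.72, or 1.25 with low signals raised. HAS2 was under 56.6 on both SCD1-WT arrays and passed the filter through SCD1-KO.

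The study asked about AMPK and autophagy in these cells. In SCD1-KO cells it followed phosphorylation of AMPK and S6K, LC3 dots and sensitivity to autophagy inhibitors, which mRNA signals do not measure. It also reported higher MAP1LC3B mRNA. The mRNA of AMPK, mTOR and autophagy genes was mostly at the level of SCD1-WT cells, with shares of called genes near those of all genes. Of 36 AMPK and mTOR genes 1 was higher (2.78% against 3.12% of all genes) and 1 lower (2.78% against 3.93%). Their median log2 ratio was 0.011. The higher gene was SESN2 at 1.2, also counted among the p53 targets. PRKAA2, a catalytic subunit of AMPK, read 140, 156 and 31.3, at least 2.47-fold lower. PRKAA1, the other catalytic subunit, stood at -0.09, MTOR at 0.40 and RPS6KB1, the S6 kinase, at -0.27. Of 45 autophagy genes 1 was higher (2.22% against 3.12% of all genes) and 1 lower (2.22% against 3.93%). Their median was 0.17. MAP1LC3B, which coats autophagosomes as LC3-II, read 3917, 9953 and 7854 and was 2.0-fold higher, just past the limit of 2-fold. SQSTM1, the cargo receptor p62, stood just under it at 0.95. MAP1LC3A was lower, with 150, 119 and 48.4, at least 2.36-fold.

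**Figure D5:**
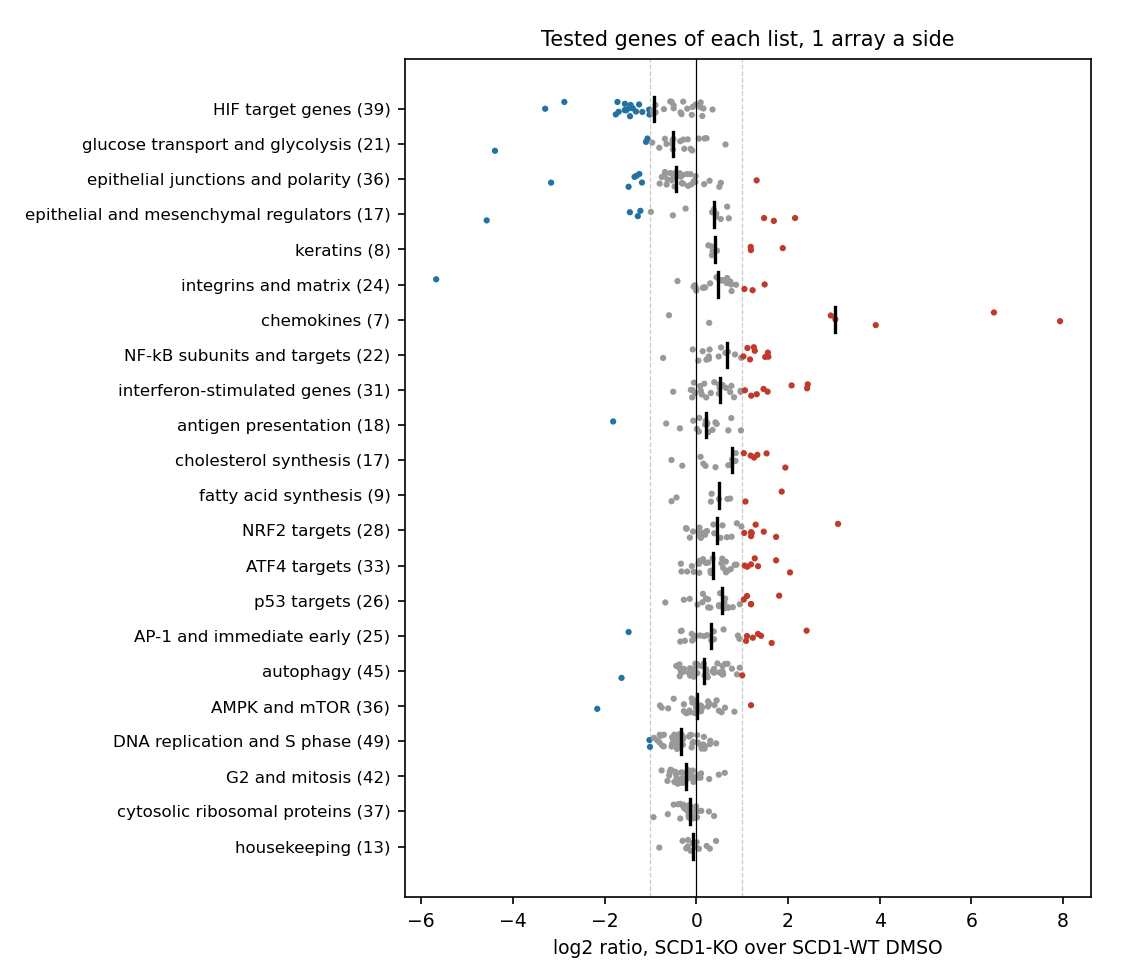
Log2 ratio of SCD1-KO over SCD1-WT with DMSO for the tested genes of 22 lists (number tested in parentheses), with 1 point a gene, genes at least 2-fold higher in red and 2-fold lower in blue, the black bar at the list's median and dashed lines at 1 and -1. HIF targets lie lowest with a median of -0.92, and the chemokines highest with a median of 3.03.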

How the data were processed

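mRNA of HCT-116 cells was hybridised to 3 Human Genome U133 Plus 2.0 arrays, 1 each for SCD1-WT with DMSO, SCD1-WT with T-3764518 and SCD1-KO. The authors deposited 1 linear intensity a probe set and array, made with MAS5 according to the submitters' processing notes, which give no version. The SCD1-KO column has more decimals (54482 values with over 1 decimal, against 0 for DMSO). Arrays number 1 a condition, which limits the precision.

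The rest was computed with pandas 2.3.3, numpy 2.4.6, statsmodels 0.14.6 and matplotlib 3.10.9 under Python 3.11.15. The calling code was also run on simulated arrays, with noise below the spread between probe sets and changes above 2-fold. No differences between cultures or clones were simulated, so that run does not show how reliable the calls are. Of 54675 probe sets, 41097 carry 1 gene in the platform annotation (41043 matched to RefSeq by gene ID), 1801 several and 11777 none listed; 62 control probe sets were left out. Probe sets at or above percentile 50 of mean log2 signal were kept, and 6169 genes had 1. Gene order came from RefSeq of GRCh38.p14, and 12301 genes were placed. The members and the 47 gene lists were chosen with earlier results of these data known. Named genes were SCD and the genes the study followed, the 15 largest differences each way after low signals were raised, the 10 brightest called genes each way, up to 4 called members a list each way, the 5 neighbors of SCD on each side and called genes of the chromosome stretches; other members were named for contrast after their values were seen. Alternatives were quantile normalization, median scaling, lowess, other signal filters, an offset of 16.5, the brightest or mean probe set, no probe sets marked _s_at or _x_at, a call by every probe set and, added after seeing the data, leaving out the chromosome stretches.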

Additional observations from a re-analysis of the deposited data

Results flagged for a closer look

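In 8 genes SCD1-KO cells and T-3764518 stood on opposite sides of SCD1-WT cells with DMSO, at least 2-fold each by the deposited signals. Each has 1 kept probe set, both ratios share the DMSO array, and the difference was not tested. NRP1, a co-receptor of VEGF and semaphorins, read 199 (DMSO), 651 (T-3764518) and 59.0 (SCD1-KO), with a log2 ratio of -1.75 for SCD1-KO over DMSO. MPZL3, an adhesion protein that lies in the lower stretch of chromosome 11, read 193, 498 and 54.7 (-1.82). TMEM125 read 550, 1286 and 258 (-1.09), and SLC5A5, the iodide transporter, read 134, 271 and 60.2 (-1.15). TNFRSF19 read 55.3, 19.7 and 343 (2.63), and RGS4, a regulator of G protein signaling, read 55.1, 19.6 and 217 (1.97); for both, the 2 SCD1-WT signals lay under 56.6, so no fold of T-3764518 over DMSO is given. CCNP read 68.7, 222 and 27.9 (-1.30) and SPRR2B, a cornified envelope protein, read 63.8, 261 and 22.4 (-1.51), and with low signals raised to 56.6 their SCD1-KO ratios were -0.28 and -0.17.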

How the results depend on the processing

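Counts moved most with the signal filter. With no filter 1783 genes were higher and 2988 lower, and 13 interferon-stimulated genes were higher. With the filter at percentile 75, 151 genes were higher and 173 lower, with 3 chemokines, 3 NF-kB genes and 2 interferon-stimulated genes higher, and the stretches from TMEM135 and FHDC1 had medians of 0.69 and -0.82. Without _s_at and _x_at probe sets, fewer genes were left: 9 HIF targets and 3 junction genes were lower, and 2 cholesterol synthesis genes, 3 chemokines, 2 NF-kB genes and 3 p53 targets were higher. Scaling to the same median moved the stretches to 0.70 (TMEM135), 0.64 (PIGG), 0.60 (MRFAP1L1), -0.66 (ARHGAP20) and -0.60 (FHDC1), and quantile normalization moved PIGG to 0.58; the median of all genes moved to 0.13 with the first, and 8 lists with medians near 0, housekeeping and ribosomal proteins among them, changed sign. With no filter HBE1 (main value -1.47), CSF1 (1.51) and IL11 (-1.58) changed sign to 0.31, -0.81 and 0.036; the cause was not tested. Of 1683 ratios of 164 named genes under the alternatives, 1610 moved by less than the spread between probe sets, 70 moved by more and 3 changed sign. Leaving out the chromosome stretches left 368 genes higher and 425 lower. No paired analysis was possible because each condition had 1 array, and no array could be left out. Dim signals limit what can be read: 81 higher genes came from under 56.6 and 150 lower genes went under it.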
